A study of Mus musculus with 4 samples.

Results

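The immune cell miRNAs described here are 8 mature mouse miRNAs, taken by name from the deposited small RNA tables. They comprise 3 myeloid miRNAs, mmu-miR-223-3p, mmu-miR-21a-5p and mmu-miR-146b-5p, and 5 lymphoid miRNAs, mmu-miR-150-5p, mmu-miR-146a-5p, mmu-miR-181a-5p, mmu-miR-181b-5p and mmu-miR-181c-5p. All 8 were listed in both tables, among 373 miRNAs in the table of small intestinal epithelial exosomes (SI-Exos) and 611 in the table of serum exosomes. Small RNA was sequenced from exosomes of male C57BL/6J mice, as 1 library each of 18m-SI-Exos (18 months old), 3m-SI-Exos (3 months old), 18m-serum-exos (18 months old) and 3m-serum-exos (3 months old). The mice received standard chow and carried no stated allele, and the labels describe every sample as cell-free purified vesicles. For SI-Exos, the intestine was everted, washed with dithiothreitol, treated with a chelator to release the epithelium, filtered and ultracentrifuged. The sources used here do not give the number of mice behind a library, and 1 library per condition leaves no replicate check and no p-value.

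A miRNA guides an Argonaute protein to messenger RNAs that pair with its seed, bases 2 to 8 of the mature strand, and lowers their translation and stability. Blood cells release miRNAs in exosomes, and some miRNAs are far more abundant in leukocytes than in epithelium. miR-223 is abundant in neutrophils and monocytes, and miR-150 in mature B, T and NK cells. miR-21, miR-146 and miR-181 are expressed in immune cells but also elsewhere, so their class names are labels for grouping and do not give the cell of origin.

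The mature strands are shown because reads of near-identical members can be exchanged between them. RefSeq entries of GRCm38.p6 matched 7 of the 8 members, and those 7 equalled the deposited sequences. Capitals mark the seed, and strands run 5′ to 3′.

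miR-223-3p: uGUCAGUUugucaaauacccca
miR-21a-5p: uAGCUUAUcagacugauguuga
miR-146b-5p: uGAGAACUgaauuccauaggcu
miR-146a-5p: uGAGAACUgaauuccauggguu
miR-181a-5p: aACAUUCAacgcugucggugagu
miR-181b-5p: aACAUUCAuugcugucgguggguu
miR-181c-5p: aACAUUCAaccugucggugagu
miR-181d-5p: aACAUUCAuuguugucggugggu

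The strands fell into 4 seed groups. miR-146a-5p and miR-146b-5p shared GAGAACU and differed at G18A and U21C (base of miR-146a-5p, position from the 5′ end, base of miR-146b-5p), both outside the seed. The 4 miR-181 strands shared ACAUUCA. miR-181b-5p differed from miR-181a-5p at A9U, C10U and A21G, and miR-181d-5p, the family member outside the set of 8, differed from miR-181b-5p at C12U over 23 positions. miR-181c-5p lacked the base at position 11 of miR-181a-5p. How the counting divided reads between such strands was not given in the sources used here. Values of miR-146b-5p, miR-181b-5p, miR-181c-5p and miR-181d-5p are uncertain to that extent.

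The myeloid and lymphoid members lay apart in the genome (GRCm38). miR-223-3p lay at chrX:96242884-96242905 on the plus strand, in an exon of the noncoding transcript F630028O10Rik. miR-21a-5p lay at chr11:86584120-86584141 on the minus strand, in an exon of Vmp1, and miR-146b-5p at chr19:46342790-46342811 on the plus strand, in an intron of Mfsd13a. miR-146a-5p lay at chr11:43374435-43374456 on the minus strand, outside the other annotated genes. miR-181a-5p has copies at chr1:137966468-137966490 and chr2:38852741-38852763, both on the plus strand and each followed by a copy of miR-181b-5p, at chr1:137966650-137966673 and chr2:38853845-38853868. miR-181c-5p lay at chr8:84178924-84178945 on the minus strand, in an intron of Nanos3, next to miR-181d-5p at chr8:84178759-84178781. Mature reads do not tell the copies of miR-181a or miR-181b apart.

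The depth differed strongly between the libraries. miRNA reads numbered 71353 in 18m-SI-Exos, 212215 in 3m-SI-Exos, 778237 in 18m-serum-exos and 832002 in 3m-serum-exos. Levels are given as CPM, counts per 1000000 miRNA reads of the library, so that 1 read equalled 14.0 CPM in 18m-SI-Exos, 4.71 CPM in 3m-SI-Exos, 1.28 CPM in 18m-serum-exos and 1.20 CPM in 3m-serum-exos. The 8 members together held 2.44% of miRNA reads (1742 reads) in 18m-SI-Exos and 2.72% (5774 reads) in 3m-SI-Exos. In serum they held 3.82% (29726 reads) in 18m-serum-exos and 2.57% (21365 reads) in 3m-serum-exos. A pair of libraries was compared by the ratio of CPM with an exact 95% interval. Calls were made only for miRNAs that reached 10 reads on one side or the other. To be called, a ratio had to lie 2-fold or more from 1, with 1 outside its interval. Intervals cover counting error only, and PCR copies are not independent molecules.

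The source differed in which immune cell miRNAs were abundant, and the order was largely kept between ages. In SI-Exos miR-181a-5p was the most abundant member at both ages, at 11394 CPM in 18m-SI-Exos and 14151 CPM in 3m-SI-Exos, and ranked 20 and 15 among the miRNAs of those libraries. In serum exosomes miR-146a-5p led, at 14258 CPM in 18m-serum-exos and 9020 CPM in 3m-serum-exos. miR-21a-5p was second in 18m-SI-Exos and in serum at both ages, and in 3m-SI-Exos it followed miR-146a-5p. In 3m-serum-exos and 3m-SI-Exos the counting intervals of these neighbours overlapped, which by itself does not settle their order. An interval for their ratio was not computed. miR-223-3p ranked 107 in 18m-SI-Exos, 248 in 3m-SI-Exos, 34 in 18m-serum-exos and 57 in 3m-serum-exos. miR-146b-5p was the least abundant member in every library except 3m-SI-Exos, where miR-223-3p had fewer reads.

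**Figure D1:**
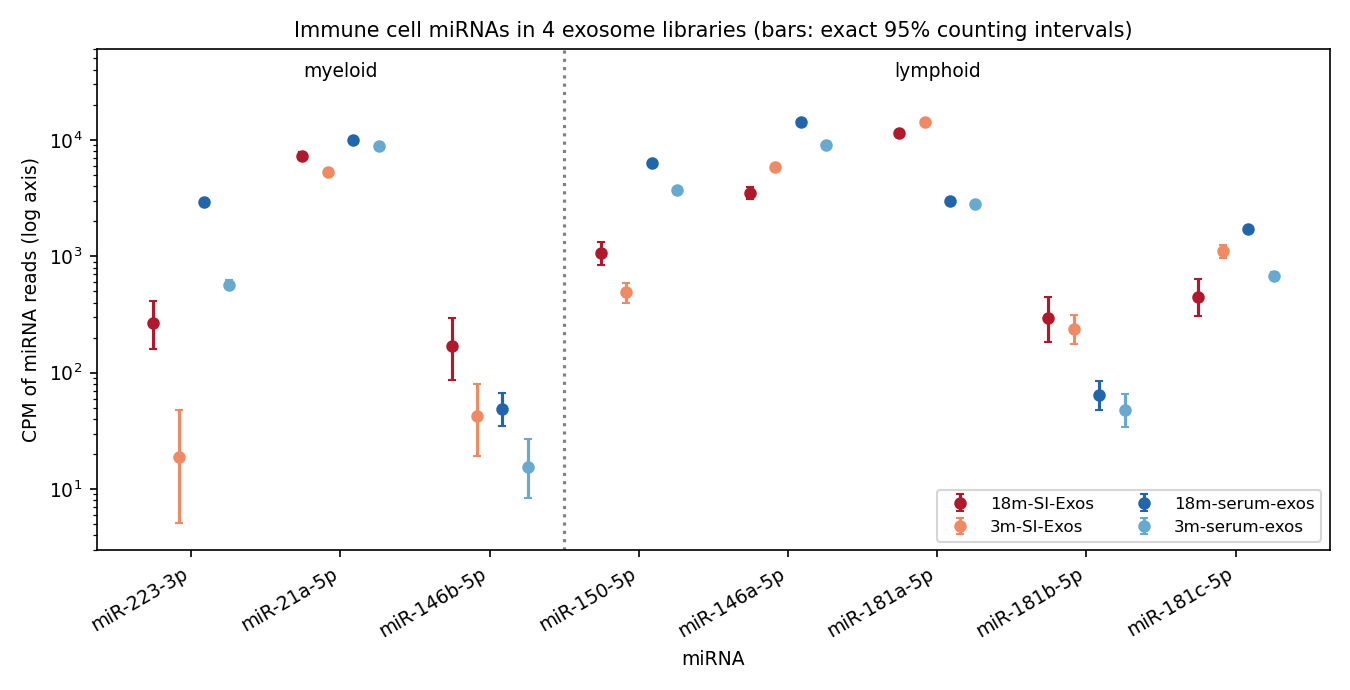
CPM of the 8 miRNAs (log axis) in the 4 libraries, with exact 95% counting intervals, which are narrower than the points for abundant miRNAs. miR-223-3p lay higher at 18 than at 3 months in both sources (266 against 18.8 CPM in SI-Exos, 2898 against 569 CPM in serum exosomes), whereas miR-181c-5p lay lower at 18 months in SI-Exos and higher in serum.

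Of the myeloid miRNAs, miR-223-3p showed the largest ratio between ages in both sources. It represses Mef2c and restrains granulocyte production and activation in mice. In SI-Exos it had 19 reads (266 CPM) at 18 months and 4 reads (18.8 CPM) at 3 months, a ratio of 14.1 (95% interval 4.69 to 57.1), called higher. The interval is wide because both counts were small, and 3 reads equalled 42.0 CPM in 18m-SI-Exos and 14.1 CPM in 3m-SI-Exos. In serum exosomes it had 2255 reads (2898 CPM) at 18 months and 473 reads (569 CPM) at 3 months, a ratio of 5.10 (4.61 to 5.64), called higher. The call stood under each of the 5 scalings in both sources, and the lowest ratios were 5.09 for SI-Exos (the authors' RPM) and 3.89 for serum (sums without the 5 most abundant miRNAs). Whether the ratio differed between the sources was not tested.

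miR-146b-5p, which represses the signalling proteins Traf6 and Irak1 like miR-146a, was also called higher in both sources, from few reads. It had 12 reads (168 CPM) in 18m-SI-Exos and 9 reads (42.4 CPM) in 3m-SI-Exos, a ratio of 3.97 (1.53 to 10.7). In serum it had 38 reads (48.8 CPM) in 18m-serum-exos and 13 reads (15.6 CPM) in 3m-serum-exos, a ratio of 3.13 (1.63 to 6.39). The SI-Exos call was lost with the authors' RPM, where the ratio was 1.43.

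miR-21a-5p, known for repressing Pdcd4 and raised in many inflamed tissues, was not called in either source. It had 519 reads (7274 CPM) in 18m-SI-Exos and 1129 reads (5320 CPM) in 3m-SI-Exos, a ratio of 1.37 (1.23 to 1.52). In serum it had 7729 reads (9931 CPM) in 18m-serum-exos and 7308 reads (8784 CPM) in 3m-serum-exos, a ratio of 1.13 (1.09 to 1.17). Its ratio in SI-Exos lay below 1 by DESeq2 size factors (0.956) and by the authors' RPM (0.492, called lower), and its serum ratio by TMM (0.990) and without the 5 most abundant miRNAs (0.862).

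Among the lymphoid miRNAs, miR-150-5p, which represses Myb in developing lymphocytes, was higher at 18 months in both sources and past 2-fold in SI-Exos. It had 76 reads (1065 CPM) in 18m-SI-Exos and 104 reads (490 CPM) in 3m-SI-Exos, a ratio of 2.17 (1.60 to 2.95), called higher. In serum it had 4913 reads (6313 CPM) in 18m-serum-exos and 3115 reads (3744 CPM) in 3m-serum-exos, a ratio of 1.69 (1.61 to 1.76), not called. The SI-Exos value depended on the scaling, at 1.52 by DESeq2 size factors and 0.783 by the authors' RPM, neither called.

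miR-146a-5p, induced by NF-κB and acting back on that pathway, had ratios on opposite sides of 1 in the 2 sources. It had 250 reads (3504 CPM) in 18m-SI-Exos and 1240 reads (5843 CPM) in 3m-SI-Exos, a ratio of 0.600 (0.521 to 0.687). In serum it had 11096 reads (14258 CPM) in 18m-serum-exos and 7505 reads (9020 CPM) in 3m-serum-exos, a ratio of 1.58 (1.53 to 1.63). Neither reached 2-fold, although in SI-Exos the ratio passed it by DESeq2 size factors (0.419) and by the authors' RPM (0.216). The difference between the sources was not tested.

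The miR-181 family, of which miR-181a tunes T cell receptor signalling in thymocytes, did not move as a unit. miR-181a-5p had 813 reads (11394 CPM) in 18m-SI-Exos and 3003 reads (14151 CPM) in 3m-SI-Exos, a ratio of 0.805 (0.744 to 0.870). In serum its 2321 reads (2982 CPM) in 18m-serum-exos and 2350 reads (2825 CPM) in 3m-serum-exos gave a ratio of 1.06 (0.997 to 1.12), an interval that includes 1, and the other scalings put it between 0.805 and 0.988. miR-181b-5p had 21 and 50 reads in 18m-SI-Exos and 3m-SI-Exos and 50 and 40 reads in 18m-serum-exos and 3m-serum-exos. Its ratios of 1.25 (0.713 to 2.12) and 1.34 (0.864 to 2.08) left changes in either direction possible. By the authors' RPM, both were called lower in SI-Exos, at 0.290 for miR-181a-5p and 0.450 for miR-181b-5p.

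miR-181c-5p was called in both sources and in opposite directions. It had 32 reads (448 CPM) in 18m-SI-Exos and 235 reads (1107 CPM) in 3m-SI-Exos, a ratio of 0.405 (0.271 to 0.588), called lower. In serum it had 1324 reads (1701 CPM) in 18m-serum-exos and 561 reads (674 CPM) in 3m-serum-exos, a ratio of 2.52 (2.28 to 2.79), called higher. The serum ratio was 1.92, and no longer called, with sums that left out the 5 most abundant miRNAs. Its chromosome 8 neighbour miR-181d-5p had 0 reads in 18m-SI-Exos and 20 reads in 3m-SI-Exos, a ratio of 0 (0 to 0.602), called lower. The interval allowed a fall as small as 1.66-fold, and a floor of 3 reads in 18m-SI-Exos would give 2.24-fold. In serum miR-181d-5p had 322 reads in 18m-serum-exos and 175 reads in 3m-serum-exos, a ratio of 1.97 (1.63 to 2.38), just short of a call.

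**Figure D2:**
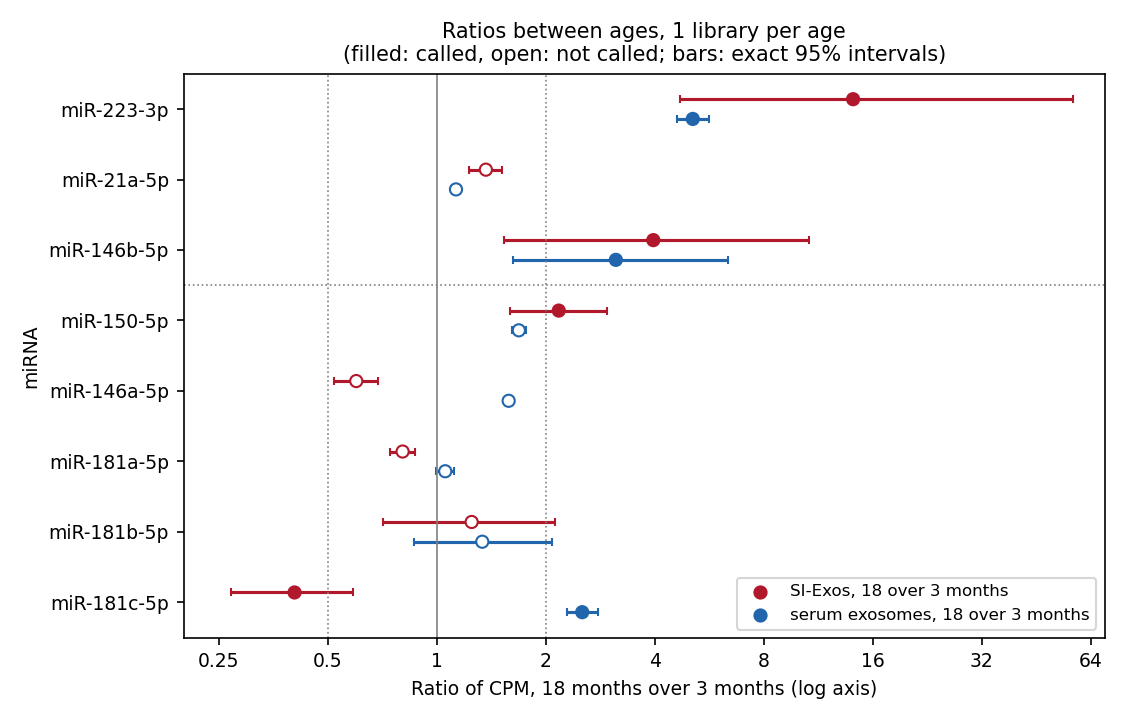
Ratio of CPM, 18 months over 3 months (log axis), of each miRNA in SI-Exos (red, upper) and serum exosomes (blue, lower), with exact 95% intervals and dotted vertical lines at 2-fold in either direction. Filled points were called: miR-223-3p and miR-146b-5p lay to the right in both sources and miR-150-5p in SI-Exos (2.17), and miR-181c-5p lay at 0.405 in SI-Exos and 2.52 in serum.

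Counted over the members, 3 were called higher and 1 lower at 18 months in SI-Exos. Over the 214 miRNAs measured there, 29.4% were called higher and 32.7% lower. In serum 3 members were called higher and 0 lower, against 25.9% higher and 18.3% lower of 251 measured miRNAs. With 8 members these counts lie close to the background and do not set the members apart as a set. The myeloid miRNAs had 2 of 3 called higher and 0 lower in each source, and the lymphoid miRNAs had 1 of 5 higher and 1 of 5 lower in SI-Exos and 1 of 5 higher in serum. The median log2 ratio, with 0.5 reads added, was 1.97 for the myeloid and -0.31 for the lymphoid members in SI-Exos, beside -0.45 over all measured miRNAs. In serum it was 1.61 for the myeloid and 0.66 for the lymphoid members, beside 0.38 over all. A list of 3 or 5 miRNAs with unlike ratios is described, not summarised, by its median.

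Scaling of the SI-Exos libraries weighs on these directions. Relative to CPM, the ratios of 18 to 3 months in SI-Exos shifted by -0.07 on the log2 scale with TMM, -0.52 with DESeq2 size factors, 0.15 without the 5 most abundant miRNAs and -1.47 with the authors' RPM. The authors' RPM divides by a library total, worked out here from counts and RPM, that is larger than the miRNA reads. By the authors' RPM, 1 member was called higher and 5 lower in SI-Exos, while 14.5% of all measured miRNAs were called higher and 61.2% lower. By DESeq2 size factors 2 members were called higher and 2 lower, beside 23.4% higher and 46.7% lower of all. miRNA reads made up 0.411% of the authors' library total in 18m-SI-Exos and 1.14% in 3m-SI-Exos, against 5.31% in 18m-serum-exos and 5.89% in 3m-serum-exos. In serum the shifts were between -0.39 and -0.10.

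Ratios of reads within a library do not depend on that scaling. The myeloid members had 550 reads and the lymphoid members 1192 in 18m-SI-Exos, a ratio of 0.461, and 1142 and 4632 reads in 3m-SI-Exos, a ratio of 0.247. The ratio was thus 1.87 times as high at 18 months (95% interval 1.66 to 2.11). In serum the ratio was 0.509 (10022 over 19704 reads) in 18m-serum-exos and 0.574 (7794 over 13571 reads) in 3m-serum-exos, a change of 0.886 (0.853 to 0.919), in the opposite direction. The sums were ruled by a few miRNAs. miR-21a-5p held 94.4% of the myeloid reads in 18m-SI-Exos, 98.9% in 3m-SI-Exos, 77.1% in 18m-serum-exos and 93.8% in 3m-serum-exos. Of the lymphoid reads, miR-181a-5p held 68.2% in 18m-SI-Exos and 64.8% in 3m-SI-Exos, and miR-146a-5p held 56.3% in 18m-serum-exos and 55.3% in 3m-serum-exos.

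Without miR-21a-5p, the myeloid over lymphoid ratio was higher at 18 months in both sources. It changed by a factor of 9.26 (4.69 to 19.3) in SI-Exos, from 31 and 13 myeloid reads at 18 and 3 months, and of 3.25 (2.94 to 3.60) in serum, from 2293 and 486 reads. Of these reads, miR-223-3p gave 19 and 4 in SI-Exos and 2255 and 473 in serum, at 18 and 3 months. The serum value was therefore almost that of miR-223-3p alone over the lymphoid members. The serum direction of the full sum turned on miR-21a-5p. Counting miR-146a-5p, which macrophages also express, with the myeloid members gave changes of 1.21 (1.08 to 1.35) for SI-Exos and 0.973 (0.935 to 1.01) for serum.

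The pair of most cell-restricted members gave the same direction in both sources. miR-223-3p over miR-150-5p, a pair chosen after the values were seen, was 0.25 in 18m-SI-Exos and 0.0385 in 3m-SI-Exos, a change of 6.44 (2.03 to 27.1). It was 0.459 in 18m-serum-exos and 0.152 in 3m-serum-exos, a change of 3.02 (2.71 to 3.38). The pair uses the same miR-223-3p reads as the sums without miR-21a-5p, so it is not separate support for them.

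Within the miR-146 seed family, miR-146b-5p over miR-146a-5p was 0.048 in 18m-SI-Exos and 0.00726 in 3m-SI-Exos, a change of 6.60 (2.52 to 17.9). In serum it was 0.00342 in 18m-serum-exos and 0.00173 in 3m-serum-exos, a change of 1.98 (1.03 to 4.05). The family sum followed miR-146a-5p, with a ratio of 18 to 3 months of 0.624 (0.544 to 0.713) for SI-Exos and 1.58 (1.54 to 1.63) for serum.

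Within the miR-181 family, miR-181c-5p over miR-181a-5p was 0.0394 in 18m-SI-Exos and 0.0783 in 3m-SI-Exos, a change of 0.503 (0.334 to 0.737). In serum it was 0.570 in 18m-serum-exos and 0.239 in 3m-serum-exos, a change of 2.39 (2.13 to 2.68). Relative to miR-181a-5p, miR-181c-5p thus moved in opposite directions in SI-Exos and serum without any scaling between libraries. This ratio uses the same miR-181c-5p reads as the calls, so it is not separate support for them. Of the reads of miR-181a, b, c and d together, miR-181c-5p held 3.70% in 18m-SI-Exos and 7.10% in 3m-SI-Exos, but 33.0% in 18m-serum-exos and 17.9% in 3m-serum-exos. miR-181b-5p over miR-181a-5p changed by 1.55 (0.880 to 2.65) for SI-Exos and 1.27 (0.815 to 1.98) for serum, both intervals including 1.

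**Figure D3:**
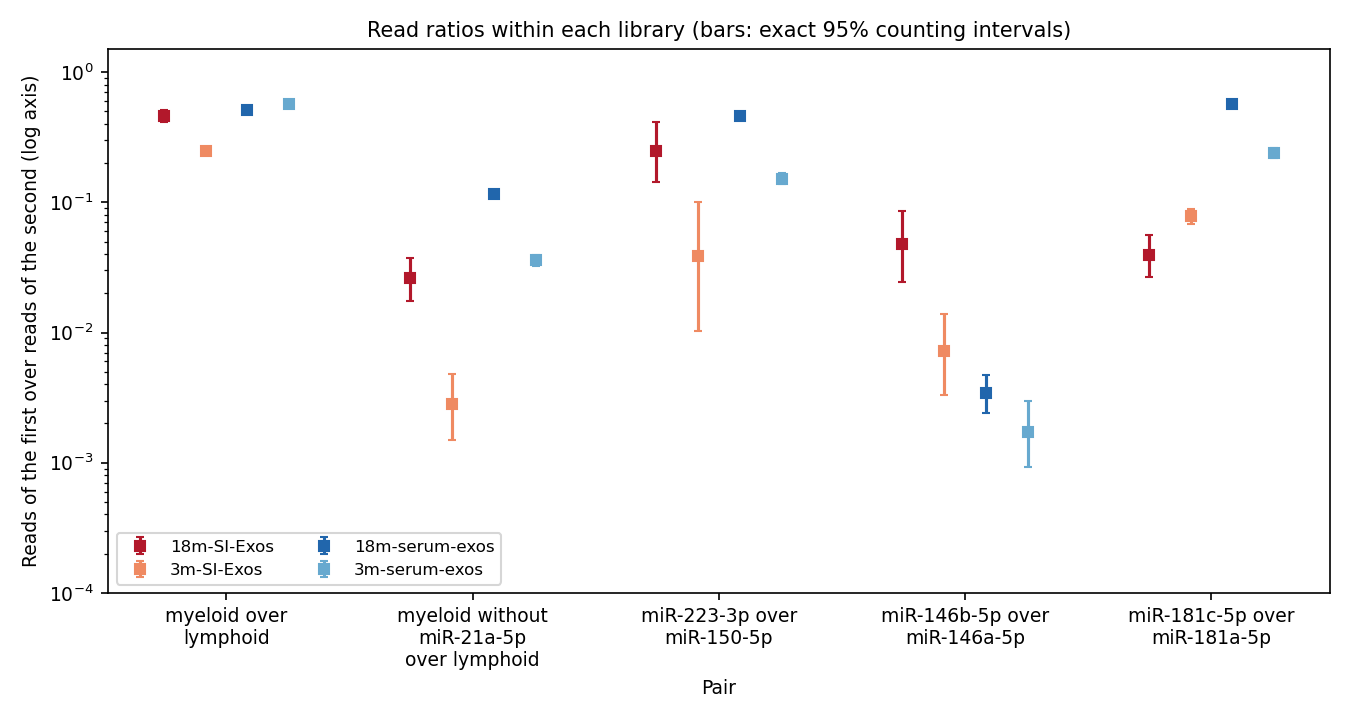
Reads of the first over reads of the second of 5 pairs within each library (log axis), with exact 95% counting intervals. miR-223-3p over miR-150-5p was higher at 18 months in both sources (0.25 against 0.0385 and 0.459 against 0.152), whereas miR-181c-5p over miR-181a-5p was lower in SI-Exos (0.0394 against 0.0783) and higher in serum (0.570 against 0.239).

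The arms of the miR-223 hairpin behaved differently in serum. miR-223-5p, the less abundant arm, had 125 reads in 18m-serum-exos and 114 reads in 3m-serum-exos, beside 2255 and 473 reads of miR-223-3p. The 5p over 3p ratio was 0.0554 in 18m-serum-exos and 0.241 in 3m-serum-exos, a change of 0.230 (0.174 to 0.305). miR-223-5p was not listed in the SI-Exos table. The other arms of the remaining hairpins that were listed (miR-21a-3p, miR-150-3p, miR-181a-1-3p and miR-181c-3p) had between 0 and 8 reads in any library and are not compared.

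The comparison of sources asks which of these miRNAs SI-Exos carry in excess of serum exosomes at the same age. The tables were deposited separately, and levels across them rest on the scaling more than those between ages. miR-223-3p was lower in SI-Exos than in serum at 18 months (266 against 2898 CPM, ratio 0.0919, 0.0552 to 0.144) and at 3 months (18.8 against 569 CPM, ratio 0.0332, 0.00900 to 0.0855). miR-150-5p was likewise lower in SI-Exos at 18 months (ratio 0.169, 0.133 to 0.212) and at 3 months (0.131, 0.107 to 0.159). Both calls held under each of the 5 scalings. miR-181c-5p and miR-146a-5p were also called lower at 18 months under each scaling, with ratios of 0.264 (0.180 to 0.374) and 0.246 (0.216 to 0.279). At 3 months their ratios were 1.64 (1.40 to 1.92) and 0.648 (0.610 to 0.688), neither called. Under the other scalings the 3-month ratio of miR-146a-5p was called lower each time (0.125 to 0.335), and that of miR-181c-5p lay below 1 (0.318 to 0.848).

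miR-181a-5p, miR-181b-5p and miR-146b-5p were called higher in SI-Exos by CPM. The ratio of miR-181a-5p was 3.82 (3.52 to 4.14) at 18 months and 5.01 (4.75 to 5.29) at 3 months, and that of miR-181b-5p 4.58 (2.61 to 7.77) and 4.90 (3.17 to 7.62) at those ages. miR-146b-5p had ratios of 3.44 (1.64 to 6.73) at 18 months and 2.71 (1.02 to 6.86) at 3 months. The miR-146b-5p call was lost at 3 months under each other scaling, with ratios of 1.40 or less, and at 18 months by TMM (1.53) and DESeq2 size factors (1.82). The 18-month call of miR-181a-5p was lost by TMM (1.70). With the authors' RPM all 6 of these ratios lay below 1. Counts of members called were 3 higher and 4 lower at 18 months, against 34.2% higher and 31.2% lower of 231 measured miRNAs. At 3 months they were 3 higher and 2 lower, against 44.3% higher and 28.1% lower of 235. By the authors' RPM they were 0 higher and 8 lower at 18 months, beside 17.7% higher and 74.9% lower of all, and 0 higher and 5 lower at 3 months, beside 21.3% and 56.6%. By TMM they were 1 higher and 5 lower at 18 months, beside 27.3% higher and 46.3% lower of all, and 2 higher and 4 lower at 3 months, beside 33.6% and 44.7%. These scalings shift every miRNA of a pair by the same factor. miR-21a-5p was not called by CPM, with ratios of 0.732 (0.669 to 0.801) at 18 months and 0.606 (0.568 to 0.645) at 3 months, but was called lower at both ages by TMM (0.326 at 18 months and 0.272 at 3 months).

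Other leukocyte miRNAs gave little signal, most of all in SI-Exos. Of a list of 10, the SI-Exos table held 5, with 20 reads in all in 18m-SI-Exos and 28 in 3m-SI-Exos. miR-142a-3p, from a hairpin active throughout the blood lineages, had 3 reads in 18m-SI-Exos and 4 in 3m-SI-Exos, and miR-142a-5p 1 and 0 reads. The 1 measured member, miR-342-3p, had 16 reads in 18m-SI-Exos and 7 in 3m-SI-Exos, a ratio of 6.80 (2.65 to 19.5), called higher. miR-155-5p, induced in activated lymphocytes and macrophages, had 0 and 9 reads there, under the minimum of 10. In serum 8 of the list were listed and 4 measured, of which 1 was called higher and 0 lower. That was miR-155-5p, with 46 reads in 18m-serum-exos and 17 in 3m-serum-exos, a ratio of 2.89 (1.63 to 5.38), and miR-342-3p had a ratio of 1.35 (1.07 to 1.69), not called. miR-142a-5p had 75 and 71 reads and miR-142a-3p 14 and 10 reads in 18m-serum-exos and 3m-serum-exos, also not called. In bulk vesicles, fewer cells of a type releasing them and less miRNA per cell cannot be told apart.

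Marker miRNAs of other cells moved with age beside these results. Of 9 epithelial miRNAs, 0 were called higher and 6 lower in SI-Exos at 18 months, and they held 8.56% of reads in 18m-SI-Exos and 27.6% in 3m-SI-Exos. The most abundant, miR-429-3p and miR-192-5p, stood at 26866 and 20350 CPM in 18m-SI-Exos against 137050 and 77176 CPM in 3m-SI-Exos, and miR-200b-3p had 0 reads at 18 months. In serum 4 epithelial miRNAs were called higher and 1 lower at 18 months, with ratios of 4.91 for miR-215-5p, 2.86 for miR-429-3p, 2.67 for miR-200b-3p, 2.48 for miR-375-3p and 0.261 for miR-192-5p. Their summed share was 0.721% in 18m-serum-exos and 1.71% in 3m-serum-exos. miR-192-5p held 3216 of the 5613 reads of this sum in 18m-serum-exos and 13184 of 14223 in 3m-serum-exos. The sum thus followed miR-192-5p, while 4 others were called higher. Of 5 erythroid miRNAs, all 3 measured in SI-Exos were called higher, and the list held 3.79% of reads in 18m-SI-Exos and 0.632% in 3m-SI-Exos, with miR-144-5p at 0 reads at 3 months. In serum 4 of 5 were called higher and the list held 54.0% of reads in 18m-serum-exos and 22.0% in 3m-serum-exos. The ratio of miR-451a, the main erythroid miRNA, was 5.90 in SI-Exos and 2.44 in serum, and that of miR-486a-5p was 3.23 in serum, while it had 37 and 2 reads in 18m-SI-Exos and 3m-SI-Exos. The liver miRNA miR-122-5p held 2.65% of reads in 18m-serum-exos and 38.4% in 3m-serum-exos. The part of blood cells, epithelium or liver in the ratios of the immune cell miRNAs was not tested.

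Set against miR-451a within each library, a comparison added after the values were seen, miR-223-3p and miR-150-5p parted. miR-223-3p over miR-451a changed by 2.39 (0.793 to 9.69) between ages in SI-Exos, an interval that includes 1, and by 2.09 (1.89 to 2.31) in serum. miR-150-5p over miR-451a changed by 0.368 (0.268 to 0.504) for SI-Exos and 0.692 (0.661 to 0.724) for serum, so that miR-150-5p gained less than the erythroid miRNA in both sources.

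By CPM, the striated muscle list was mixed, and the endothelial list was not. The endothelial miR-126a arms summed to 12571 CPM in 18m-SI-Exos and 7502 CPM in 3m-SI-Exos, and to 25377 CPM in 18m-serum-exos and 19764 CPM in 3m-serum-exos. By CPM, miR-126a-5p was called higher in SI-Exos (2.30, 1.15 to 4.53), from 17 and 22 reads at 18 and 3 months. Its ratio in serum (1.66) and those of miR-126a-3p (1.67 in SI-Exos and 1.28 in serum) were not called. The striated muscle list held 0.151% in 18m-SI-Exos and 0.480% in 3m-SI-Exos, and 0.727% in 18m-serum-exos and 0.697% in 3m-serum-exos. Its members parted in SI-Exos, where miR-1a-3p was called lower (0.205), while miR-206-3p (4.83) was called higher, as was miR-133a-3p (8.59). In serum miR-206-3p was likewise called higher (3.23).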

How the data were processed

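Small RNA was sequenced from 4 exosome libraries, 1 per condition. Per the labels, RNA was extracted with a miRNeasy Serum/Plasma Kit and libraries were made with an MGI small RNA kit and run on a DNBSEQ-G400, while the study's methods name another kit and sequencer. Bowtie2 (2.2.9) and GRCm38 are named in the submitters' processing notes, and the sources used here do not say how multiply matching reads were counted. The authors deposited 2 tables, with whole read counts per miRNA and RPM values (reads per 1000000 of a library total). These library totals, worked out here from counts and RPM, ran between 14129517 and 18606936. The authors' fold change, p and FDR columns were not used.

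Counts were scaled to the column sum (CPM). Ratios and read ratios within a library carry exact Clopper-Pearson 95% intervals from the conditional binomial (scipy 1.17.1), and changes of such a ratio are conditional odds ratios. Measured means that either library of a pair held 10 reads or more. Called means that, in addition, the ratio was 2-fold or beyond, or one side had 0 reads, and its interval left out 1. 0.5 reads were added for list medians. The procedure was checked on simulated counts with known ratios and counting error only. Variation between mice or libraries, PCR copies and scaling error were not simulated. Alternatives were TMM factors (edgeR 4.0.16), DESeq2 1.42.0 size factors, the authors' RPM, sums without the 5 most abundant miRNAs, minimums of 1 and 50 reads, ratios of 1.5 and 4, no interval rule and other class assignments.

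The members and lists were chosen with earlier results of these data known. Named are all 8 members, other arms, miR-181d-5p and other leukocyte miRNAs that reached 10 reads anywhere, the most abundant miRNAs of each marker list, and the 3 miRNAs most alike miR-223-3p and miR-150-5p. Names outside this rule were chosen after their values were seen. Samples were grouped by the tissue and age in their labels. Sequences and positions are from RefSeq and GENCODE annotations of GRCm38.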

Additional observations from a re-analysis of the deposited data

Results flagged for a closer look

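miR-181c-5p stood out because its calls with age were opposite in the 2 sources. Its ratio of 18 to 3 months was 0.405 in SI-Exos, whereas serum exosomes had 2.52. The difference between the sources was not tested, since each condition had 1 library. How reads were divided between miR-181c-5p and the near-identical miR-181a-5p was also not given.

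The reads of the myeloid over those of the lymphoid members also moved in opposite directions, by 1.87 for SI-Exos and 0.886 for serum exosomes, and neither interval includes 1. This difference was not tested either, and without miR-21a-5p both sources moved in the same direction.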

How the results depend on the processing

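Of 128 member ratios under the 4 other scalings, 33 received another call and 21 lay on the other side of 1. Of the 21, 14 were ratios not called by CPM (miR-21a-5p and miR-181b-5p between ages in SI-Exos, miR-21a-5p and miR-181a-5p in serum, and miR-181c-5p between sources at 3 months). The other 7, called by CPM, turned only with the authors' RPM. These were miR-150-5p between ages in SI-Exos (0.783), miR-146b-5p, miR-181a-5p and miR-181b-5p in SI-Exos over serum at 18 months (0.266, 0.295 and 0.354) and at 3 months (0.526, 0.970 and 0.949). The count of members called between ages in SI-Exos was 4, and 2 with a minimum of 50 reads or 1 at a ratio of 4. In serum it was 3, and 5 at a ratio of 1.5 or 1 at a ratio of 4. For SI-Exos over serum it was 7 at 18 months and 4 at a ratio of 4, and 5 at 3 months and 8 at a ratio of 1.5. These counts join higher and lower calls, and the 8 were 4 higher and 4 lower. The share of all miRNAs called at those other thresholds is not given here, so the counts show no trait of the members. The change of the myeloid over lymphoid ratio with age in SI-Exos (1.87) was 9.26 without miR-21a-5p, 1.21 with miR-146a-5p as myeloid and 4.86 from medians over members. In serum (0.886) it was 3.25, 0.973 and 1.93 under those choices, reversed for the first and the last. The values from medians compare the median CPM ratios of the lists and are not changes of a read ratio. In SI-Exos the myeloid median was that of miR-146b-5p, which had 12 reads in 18m-SI-Exos and 9 in 3m-SI-Exos. The causes were not tested beyond the construction of each choice. Depth limits miR-223-3p, miR-146b-5p and miR-181b-5p in SI-Exos most, with 4 to 50 reads. No paired analysis was possible because each condition has 1 library. Leaving out a library was not possible for the same reason.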

Other observations

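Over the 4 libraries, the miRNAs whose CPM pattern was most like that of miR-223-3p, by the root mean square difference of centred log2 CPM among 147 known miRNAs, were miR-451a (0.58), miR-486b-5p (0.68) and miR-328-3p (1.01). miR-486b-5p had 10 and 4 reads in 18m-SI-Exos and 3m-SI-Exos and 1461 and 127 reads in 18m-serum-exos and 3m-serum-exos. The nearest to miR-150-5p were miR-484 (0.12), miR-15a-5p (0.50) and miR-222-3p (0.51). miR-484 had 11 and 17 reads in 18m-SI-Exos and 3m-SI-Exos and 782 and 418 reads in 18m-serum-exos and 3m-serum-exos. These are descriptions over 4 libraries that share their scaling, and nothing follows from them about a shared source.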
